A study of Arabidopsis thaliana with 12 samples.

Results

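The ABCG transporters of Arabidopsis thaliana were described in blue-light-grown seedlings exposed to 3-bromo-7-nitroindazole (3B7N) or to its solvent, dimethyl sulfoxide (DMSO). Members were the loci whose symbol or synonym is ABCG followed by a number, which gave ABCG1 to ABCG43, 43 loci in all. A probe was present on the array for 40 of the 43, and 35 passed the filter on dim signal, among 25388 loci with a probe and 20487 genes tested in the whole series. The study set wild type Col-0 beside the mutant cry1cry2, which lacks both cryptochromes, the main blue-light receptors of seedlings. Each genotype was grown on medium with DMSO or with 15 µM 3B7N, an indazole that blocks nitric oxide synthases of mammals, with 3 arrays in each of the 4 groups. Seeds lay 3 days in the dark at 4 °C on that medium and then 4 days under blue light kept on throughout, at 5 µmol m-2 s-1, and whole seedlings 4 days old were harvested. The labels do not say whether the 3 samples of a group were separate cultures, so the p-values measure the spread between these samples, which may be technical.

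ABCG proteins are membrane pumps that use ATP to move lipids, hormones and secondary metabolites out of cells or into compartments. Members ABCG1 to ABCG28 carry a single set of domains and work in pairs, and the 28 loci are called half-size. Members ABCG29 to ABCG43 carry both sets in 1 chain, and the 15 loci are called full-size. Plants use them to build the suberin of roots, the cuticle of shoots and the wall of pollen, to move abscisic acid (ABA) and cytokinin, and to excrete defence compounds.

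Every signal below is a relative log2 signal, the log2 of the background-subtracted intensity minus the log2 of the 75th percentile of the same array, so 0 marks that percentile. Signals of different probes were not set against each other, since probes differ in brightness at equal RNA. A difference was tested with limma across all 20487 genes and is given with its standard error (SE). A gene was called higher or lower where the Benjamini-Hochberg adjusted p was under 0.05 and the log2 difference was at least 1 in size. The 75th percentile lay between 888.4 and 6821 intensity units, 64.4% to 81.2% of probes were well above background on an array, and arrays of a group correlated at 0.979 to 0.993. The mutation was seen in the RNA, since 2 probes of CRY1 read 2.87 to 3.85 in wild type and -9.86 to -7.73 in cry1cry2, and 2 probes of CRY2 read 1.84 to 2.86 and -10.83 to -8.6. The arrays lay on 3 slides. The first held the 3 wild-type DMSO arrays and 1 wild-type 3B7N array, the second held the other 2 wild-type 3B7N arrays and 2 cry1cry2 DMSO arrays, and the third held the last cry1cry2 DMSO array and the 3 cry1cry2 3B7N arrays.

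With 3B7N in wild type, 14 of the 35 tested members were higher and 2 were lower, which is 45.7% of them against 15% of all genes tested (5.88% higher and 9.1% lower). The median log2 difference over the tested members was 0.49, beside -0.06 over all genes. In cry1cry2, 8 members were higher and 0 lower by limma, 22.9% against 3.74% of all genes (2.11% higher and 1.63% lower), with a median of 0.35 beside 0.04. At an unadjusted p under 0.05, 12 were higher and 5 lower there. Of all 20487 genes, 10092 had such a p with 3B7N in wild type and 4554 in cry1cry2. Between genotypes 10663 had it on DMSO and 8234 on 3B7N, and 8495 had it in the interaction, so such a p is common in these data. The other subfamilies of ABC transporters stood nearer the background. Of their 64 tested genes, wild type had 2 higher and 5 lower (10.9%) and 3 were higher in cry1cry2 (4.69%). Among half-size members 10 of 23 were higher and 2 lower in wild type (52.2%), and among full-size members 4 of 12 were higher (33.3%). The groups of 3 arrays did not overlap for 49.9% of all genes tested in wild type and 28.7% in cry1cry2 with 3B7N, nor for 56% between genotypes on DMSO and 41.9% on 3B7N, so a gap between groups alone carries little weight here. These are bulk samples, in which fewer cells of a type and less RNA per cell cannot be told apart.

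**Figure D1:**
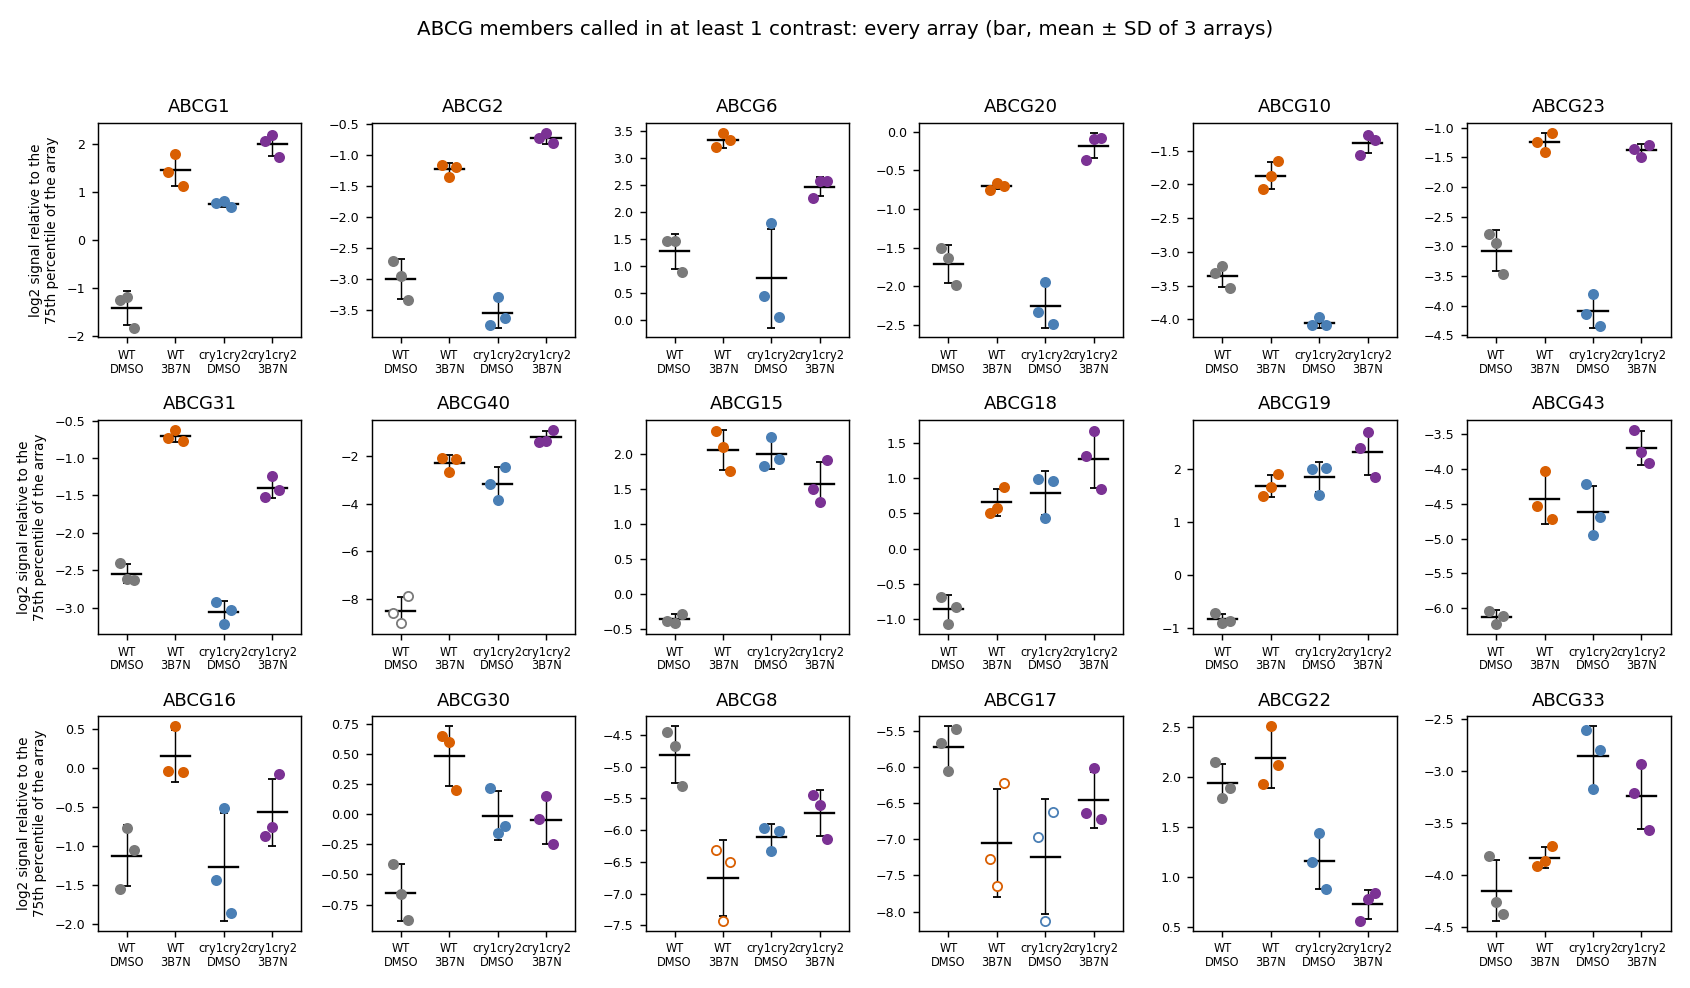
Relative log2 signal (vertical axis, log2 units, a separate scale in each panel) of the 18 ABCG members called in at least 1 contrast, on all 12 arrays in the 4 groups on the horizontal axis. Points are arrays, bars are the mean ± SD of 3 arrays, and open points belong to a group in which the probe was not well above background on all 3 arrays. ABCG1 rose from a mean of -1.42 to 1.45 with 3B7N in wild type and from 0.76 to 1.99 in cry1cry2.

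The 4 members placed here under suberin, the waxy barrier of the root endodermis and the seed coat, were higher with 3B7N in both genotypes. Each member was placed under a single role, and ABCG11, placed with the cuticle, was not called in any contrast. The 4 are ABCG1 (AT2G39350), ABCG2 (AT2G37360), ABCG6 (AT5G13580) and ABCG20 (AT3G53510). Of these, 4 of 4 were called higher in wild type (median 1.91) and 4 of 4 in cry1cry2 (median 1.89). ABCG1, which also serves the pollen wall, read -1.25, -1.18 and -1.82 on the wild-type DMSO arrays and 1.42, 1.79 and 1.13 on 3B7N. The mutant arrays stood at 0.77, 0.82 and 0.68 on DMSO and 2.05, 2.19 and 1.73 on 3B7N. Each step upward was clear of the spread, and the untreated mutant already lay well above untreated wild type. The difference with 3B7N was 2.87 ± 0.21 (limma adjusted p = 3.87e-06), or 7.29-fold, in wild type. In cry1cry2 it was 1.24 ± 0.21 (limma adjusted p = 0.00508).

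ABCG2 read -2.71, -2.95 and -3.34 on the wild-type DMSO arrays and -1.16, -1.36 and -1.19 on 3B7N. Its mutant arrays stood at -3.73, -3.29 and -3.62 on DMSO and -0.74, -0.65 and -0.82 on 3B7N. Unlike ABCG1, its untreated signal was lower in the mutant (-0.55, limma adjusted p = 0.0223), short of the size threshold. With 3B7N the arrays stood far above the untreated ones in both genotypes. The difference was 1.76 ± 0.17 (limma adjusted p = 2.52e-05) in wild type and 2.81 ± 0.17 (limma adjusted p = 2.74e-06), or 7.01-fold, in cry1cry2. A second ABCG2 probe, well above background on 0 to 2 arrays of each group, gave 0.25 and 2.18.

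For ABCG20 the wild-type arrays read -1.51, -1.64 and -1.99 on DMSO and -0.75, -0.67 and -0.7 on 3B7N. The mutant arrays read -2.33, -1.94 and -2.49 on DMSO and -0.37, -0.09 and -0.08 on 3B7N. The ABCG20 groups did not overlap in either genotype, and the gap was wider in the mutant. The difference was 1.01 ± 0.17 (limma adjusted p = 0.000978) in wild type, which lies at the threshold, and 2.07 ± 0.17 (limma adjusted p = 3.24e-05) in cry1cry2. Without wild-type DMSO array 3 it was 0.865, and without wild-type 3B7N array 2 it was 0.988, both short of the call. A second, dim ABCG20 probe, well above background on all 3 arrays only in treated cry1cry2, gave 0.65 in wild type and 0.96 in cry1cry2. With the mean of the passing probes the call in wild type was lost.

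ABCG6 read 1.46, 1.46 and 0.89 on the wild-type DMSO arrays and 3.2, 3.47 and 3.33 on 3B7N. Mutant arrays lay at 0.45, 1.8 and 0.06 on DMSO and 2.27, 2.57 and 2.57 on 3B7N. The second mutant DMSO array stood apart from the other 2, and the treated arrays were above it. The difference was 2.07 ± 0.36 (limma adjusted p = 0.000986) in wild type and 1.70 ± 0.36 (limma adjusted p = 0.0144) in cry1cry2, where it was 1.54 (adjusted p = 0.0565) without DMSO array 1 and 1.35 (adjusted p = 0.0506) without DMSO array 3.

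Within the slide that held both wild-type groups, the difference with 3B7N was 2.84 for ABCG1, 1.84 for ABCG2, 1.93 for ABCG6 and 0.97 for ABCG20. Within the slide that held both mutant groups it was 1.31, 2.88, 2.41 and 2.31 in the same order. Each of those values rests on 1 array against 3. With slide as a block the call in wild type was lost for ABCG20 (0.97, adjusted p = 0.0183) and the call in cry1cry2 for ABCG1 (1.31, adjusted p = 0.0949).

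Genes that make suberin were read beside its transporters, from a list of 16, of which 15 were tested. With 3B7N, 9 were higher and 1 was lower in wild type (median 1.24). In cry1cry2 limma called 8 higher and 0 lower (median 1.61), and at an unadjusted p under 0.05 10 were higher and 1 was lower. CYP86A1, the fatty acid hydroxylase of root suberin, rose by 2.13 ± 0.14 (limma adjusted p = 2.33e-06) in wild type and by 3.69 ± 0.14 (limma adjusted p = 1.8e-07) in cry1cry2. MYB93, a transcription factor of the suberin pathway, rose by 2.04 ± 0.20 and by 3.81 ± 0.20 in the same order, and the acyltransferase gene GPAT5 by 1.80 and by 2.19. FAR1, a reductase that makes the fatty alcohols of suberin, rose by 3.29 ± 0.30 in wild type, and KCS2, an elongase of very long fatty acids, by 2.01 ± 0.22. MYB39, another suberin factor, was the 1 lower gene in wild type, at -1.25 ± 0.43 (limma adjusted p = 0.0395). In cry1cry2 the lowest difference of the list was -0.98, for KCS2, short of the size threshold.

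Between genotypes the suberin genes were mixed, as the transporters were. On DMSO, 3 of the 15 were higher and 2 lower in cry1cry2 than in wild type (median -0.41). Of the 4 transporters 1 was called higher and 0 lower by limma, with 2 lower at an unadjusted p under 0.05 (median -0.52). These 2 were ABCG2 (-0.55, limma adjusted p = 0.0223) and ABCG20 (-0.54, limma adjusted p = 0.0242), which also passed the adjusted p and were short of the size threshold. FAR1 and KCS2 were higher by 4.69 ± 0.30 and 2.94 ± 0.22, and ABCG1 by 2.18 ± 0.21. MYB93 and MYB53, another suberin factor, were lower at -1.33 ± 0.20 and -1.05 ± 0.20. The suberin list had 5 positive and 2 negative calls in the interaction. That term, the change with 3B7N in cry1cry2 minus that in wild type, was -2.93 ± 0.42 for FAR1, -2.99 ± 0.31 for KCS2 and -1.63 ± 0.30 for ABCG1. It was positive for CYP86A1 (1.55 ± 0.20) and MYB93 (1.77 ± 0.29), and also for ABCG2 (1.05 ± 0.24) and ABCG20 (1.07 ± 0.24). All 7 of the named interactions passed the limma call.

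Markers of the root endodermis moved with some of these groups. In wild type 7 of 9 were higher with 3B7N (median 1.73), among them ESB1 and CASP1, which build the Casparian strip, at 2.19 ± 0.19 and 1.83 ± 0.19. In cry1cry2 limma called 0 of 9 higher (1 higher at an unadjusted p under 0.05) and CASP4 lower at -1.07 ± 0.24, with a median of 0.03. Their summed signal, in units of the 75th percentile of the array, was 20.5 to 21.5 in wild type on DMSO, 60.2 to 75 with 3B7N, 34.3 to 51.9 in cry1cry2 on DMSO and 39.1 to 50.3 in cry1cry2 on 3B7N. All 9 markers were well above background on all 3 arrays of each group, so none was at 0. In cry1cry2 the 4 suberin transporters rose, and the summed marker signal of the treated and untreated arrays overlapped. In wild type the markers rose with the transporters. The part of endodermis cells in the result of either genotype was not tested. Of 4 root hair markers limma called 0 with 3B7N in either genotype, with 1 at an unadjusted p under 0.05 in each.

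**Figure D2:**
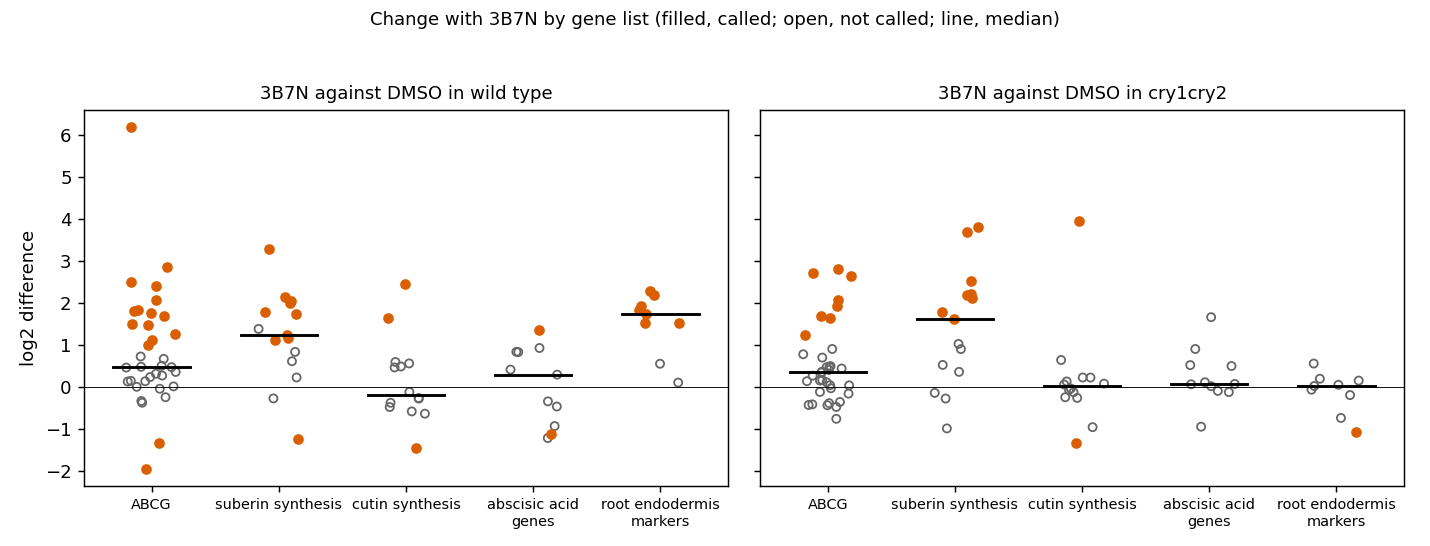
Log2 difference with 3B7N (vertical axis) of single genes in 5 gene lists (horizontal axis), in wild type on the left and cry1cry2 on the right. Filled points were called, open points were not, and the line is the median of the list, which for the root endodermis markers is 1.73 in wild type and 0.03 in cry1cry2 and for suberin synthesis 1.24 and 1.61.

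Members that transport ABA, the hormone of drought and seed dormancy, were mixed. Of 6 tested, 4 were higher and 1 was lower with 3B7N in wild type, and 2 were higher in cry1cry2. ABCG40 (AT1G15520), an importer of ABA into guard cells and embryos, read -8.57, -9.02 and -7.89 in wild type on DMSO, where it was well above background on 0 of 3 arrays. The wild-type 3B7N arrays read -2.09, -2.67 and -2.11, the cry1cry2 DMSO arrays -3.16, -3.86 and -2.45, and the cry1cry2 3B7N arrays -1.4, -1.38 and -0.89. Untreated wild type was thus the group below background, and the other 3 groups lay closer to each other than to it. Signal with 3B7N was at least 26.2-fold higher in wild type (fitted log2 difference 6.20 ± 0.36, limma adjusted p = 8.41e-07), the bound being set against the lowest signal that was well above background on each array. In cry1cry2 the difference was 1.93 ± 0.36 (limma adjusted p = 0.00799), but it was 1.23 within the slide that held both groups, and the call was lost with slide as a block (adjusted p = 0.253). Normexp background correction, which lifts dim signals, together with quantile scaling between arrays gave a fitted difference of 2.60 in wild type, and quantile scaling alone gave 6.45. The value of 2.60 is under the bound, which thus holds only for the background subtraction used in the fit above.

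ABCG31 (AT2G29940), which releases ABA from the endosperm of seeds, read -2.4, -2.61 and -2.63 on the wild-type DMSO arrays and -0.73, -0.62 and -0.77 on 3B7N. The cry1cry2 arrays read -2.92, -3.22 and -3.03 on DMSO and -1.52, -1.24 and -1.43 on 3B7N. The arrays of each group lay close together, and both steps were many times that spread. The difference was 1.84 ± 0.13 (limma adjusted p = 3.26e-06) in wild type and 1.66 ± 0.13 (limma adjusted p = 2.02e-05) in cry1cry2, with 1.81 and 1.64 within slides. These 2 changes differed by -0.18 (limma adjusted p = 0.487), which is not shown to differ from 0.

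ABCG30 (AT4G15230), an ABA importer of the embryo, read -0.41, -0.66 and -0.88 on the wild-type DMSO arrays and 0.65, 0.6 and 0.2 on 3B7N. Its mutant arrays read 0.22, -0.16 and -0.1 on DMSO and -0.04, 0.15 and -0.25 on 3B7N. Wild-type groups were apart and mutant groups overlapped. The difference was 1.13 ± 0.18 (limma adjusted p = 0.000625) in wild type, or 1.296 with slide as a block, and -0.03 in cry1cry2. The interaction was -1.16 ± 0.26 (limma adjusted p = 0.00624). Of its 2 other probes, 1 gave 1.08 and -0.03, and a dim one gave 1.38 and 0.81.

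ABCG25, an ABA exporter of the vasculature, was short of the call at 0.67 in wild type (limma adjusted p = 0.00513) and 0.17 in cry1cry2. ABCG17 and ABCG18, importers that store ABA in mesophyll cells, are neighbours on chromosome 3 and moved apart. ABCG17 (AT3G55100) fell in wild type from -5.73 ± 0.29 to -7.05 ± 0.75 (SD, n = 3), by 1.32 ± 0.42 on the log2 scale (limma adjusted p = 0.0266), but it was well above background on 1 of 3 treated arrays. That call was lost with slide as a block (adjusted p = 0.0761), with normexp and quantile scaling (-0.53) and without wild-type DMSO array 1 or 3 or 3B7N array 1 or 2 (adjusted p 0.0621 to 0.1). ABCG18 is described with the next group.

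Other genes of ABA synthesis, turnover and transport were read beside these members. Of 11 on the list, 1 was higher and 1 lower with 3B7N in wild type (median 0.30), and limma called 0 in cry1cry2 (median 0.08), where 3 had an unadjusted p under 0.05. NCED3, a synthesis enzyme, rose by 1.37 ± 0.41 (limma adjusted p = 0.0211) in wild type, and CYP707A4, which breaks ABA down, fell by 1.12 ± 0.22 (limma adjusted p = 0.00263). In all, 7 of the 11 passed the limma adjusted p in wild type, the rest of them short of the size threshold. Of these, CYP707A1 (0.932) and CYP707A2 (0.835), of the same family as CYP707A4, and AAO3 (0.841) were higher. BGLU18 (-0.927) and ABA2 (-0.461) were lower. Of 4 guard cell markers, 2 were lower and 0 higher by limma in wild type with 3B7N, with 1 higher at an unadjusted p under 0.05 (median -0.66). FAMA was at -1.50 ± 0.23 and MYB60 at -1.16 ± 0.23, while KAT1 was at 0.55 (limma adjusted p = 0.0202), short of the size threshold, and SCAP1 at -0.17. The 4 summed to 1.12 to 1.43 on the wild-type DMSO arrays and 0.706 to 0.86 on 3B7N, with all 4 above background in each group. The part of guard cells in the ABCG40 result was not tested.

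A group of 4 members was higher both with 3B7N in wild type and in the untreated mutant, and was not called with 3B7N in the mutant. They are ABCG15 (AT3G21090), ABCG18 (AT3G55110), ABCG19 (AT3G55130) and ABCG43 (AT4G15236). These 2 comparisons share the wild-type DMSO arrays, so their values stand side by side and are not independent. No role is given here for ABCG15 or ABCG43.

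ABCG15 read -0.38, -0.42 and -0.28 on the wild-type DMSO arrays and 2.32, 2.1 and 1.75 on 3B7N. For cry1cry2 the signals were 1.83, 2.24 and 1.92 on DMSO and 1.5, 1.31 and 1.91 on 3B7N. Untreated wild type was the low group, and the other 3 groups overlapped. The difference with 3B7N was 2.41 ± 0.19 (limma adjusted p = 6.5e-06), or 5.32-fold, in wild type and -0.42 in cry1cry2, and the mutant was higher than wild type on DMSO by 2.36 ± 0.19. A second probe gave 2.42, -0.66 and 2.41 for the same comparisons.

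ABCG19, whose product in the vacuolar membrane gives tolerance to the antibiotic kanamycin, read -0.71, -0.9 and -0.86 on the wild-type DMSO arrays and 1.49, 1.66 and 1.91 on 3B7N. The mutant read 2, 1.52 and 2.03 on DMSO and 2.41, 2.7 and 1.86 on 3B7N. Again untreated wild type stood alone, and the mutant groups overlapped. The difference with 3B7N was 2.51 ± 0.22 (limma adjusted p = 1.14e-05), or 5.68-fold, in wild type and 0.47 in cry1cry2, and the mutant was higher on DMSO by 2.67 ± 0.22.

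ABCG18 read -0.68, -1.07 and -0.82 on the wild-type DMSO arrays and 0.51, 0.58 and 0.88 on 3B7N. The signals of the mutant were 0.99, 0.43 and 0.96 on DMSO and 1.31, 1.67 and 0.84 on 3B7N. Untreated wild type was again below every other group, and the mutant groups overlapped. The difference with 3B7N was 1.51 ± 0.23 (limma adjusted p = 0.000394) in wild type and 0.48 in cry1cry2, and the mutant was higher on DMSO by 1.65 ± 0.23. A second ABCG18 probe was well above background on 1 of 12 arrays and was not used.

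ABCG43 read -6.04, -6.23 and -6.11 on the wild-type DMSO arrays and -4.53, -4.02 and -4.72 on 3B7N. In cry1cry2 it read -4.21, -4.94 and -4.69 on DMSO and -3.43, -3.76 and -3.91 on 3B7N. This member stepped up in each genotype, the second step staying under the threshold of 1. The difference was 1.70 ± 0.22 (limma adjusted p = 0.000172) in wild type and 0.91 (limma adjusted p = 0.0292) in cry1cry2, and the mutant was higher on DMSO by 1.52 ± 0.22. Its interaction was -0.79 (limma adjusted p = 0.0774) and was not called, unlike those of ABCG15, ABCG18 and ABCG19.

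Within the slide that held both wild-type groups, ABCG15 differed by 2.68, ABCG18 by 1.37, ABCG19 by 2.31 and ABCG43 by 1.59 with 3B7N, and the slide block left all 4 called in wild type. ABCG43 was 0.82 with normexp and quantile scaling and lost it there. Between genotypes on DMSO the call held under the slide block for ABCG15 (2.79) and ABCG19 (2.29) and was lost for ABCG18 (1.35, adjusted p = 0.056) and ABCG43 (1.40, adjusted p = 0.0529).

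ABCG16, ABCG17 and ABCG18 follow each other with no gene between them on chromosome 3 in the TAIR10.1 assembly, and 1 gene lies between ABCG18 and ABCG19. On chromosome 4, ABCG41, ABCG30 and ABCG42 follow each other directly and 1 gene lies between ABCG42 and ABCG43. In the first cluster ABCG17 was lower with 3B7N in wild type, while ABCG16 and ABCG18 on either side of it were higher. Related members may share signal on a probe, which leaves single values of close relatives uncertain. ABCG16, needed with ABCG1 for the pollen wall, went in wild type from -1.13 ± 0.40 to 0.15 ± 0.33 (SD, n = 3), a rise of 1.28 ± 0.34 (limma adjusted p = 0.0122) that lost its call with slide as a block (1.10, adjusted p = 0.103). In cry1cry2 its difference was 0.70, and the interaction was -0.57 (limma adjusted p = 0.4).

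**Figure D3:**
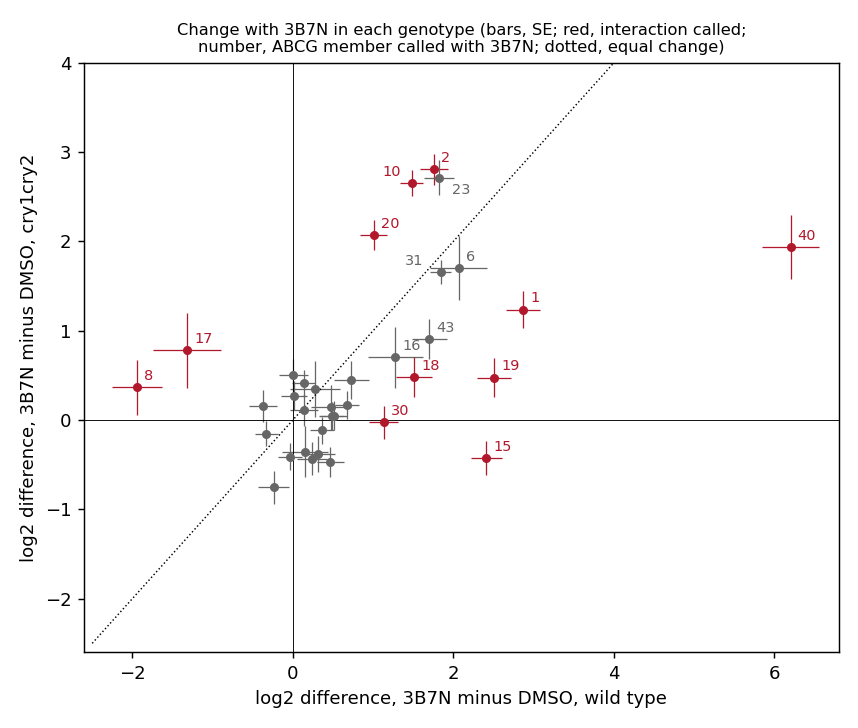
Log2 difference with 3B7N in wild type (horizontal axis) and in cry1cry2 (vertical axis) for the 35 tested members, with bars of 1 SE. Red points were called in the interaction, numbers name the members called with 3B7N in either genotype, and on the dotted line both changes are equal. ABCG15 and ABCG40 lie far below the line, with interactions of -2.84 and a fitted -4.27 (against background signal for ABCG40), and ABCG2, ABCG10 and ABCG20 lie above it.

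For the half-size members ABCG10 (AT1G53270) and ABCG23 (AT5G19410) no role is given here, and both rose in both genotypes. ABCG10 read -3.31, -3.21 and -3.54 on the wild-type DMSO arrays and -2.07, -1.88 and -1.66 on 3B7N. In cry1cry2 it read -4.09, -3.96 and -4.09 on DMSO and -1.56, -1.27 and -1.34 on 3B7N. Its arrays were tight in each group and the mutant covered the wider span. The difference was 1.48 ± 0.15 (limma adjusted p = 2.48e-05) in wild type and 2.65 ± 0.15 (limma adjusted p = 8.81e-07), or 6.29-fold, in cry1cry2, with 1.28 and 2.69 within slides.

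ABCG23 read -2.8, -2.95 and -3.47 on the wild-type DMSO arrays and -1.25, -1.41 and -1.09 on 3B7N. In cry1cry2 it read -4.14, -3.81 and -4.35 on DMSO and -1.36, -1.49 and -1.29 on 3B7N. Both treated groups reached about the same signal from different starting points. The difference was 1.82 ± 0.19 (limma adjusted p = 4.12e-05) in wild type and 2.71 ± 0.19 (limma adjusted p = 8.56e-06) in cry1cry2, with 1.82 and 2.96 within slides. Untreated cry1cry2 was lower than wild type by a called -1.03 ± 0.19 (limma adjusted p = 0.00123), which fell short of 1 in size without wild-type DMSO array 1 (-0.89) or 2 (-0.97), without cry1cry2 DMSO array 3 (-0.90), with normexp and quantile scaling (-0.72) and with slide as a block (-0.90, adjusted p = 0.102).

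ABCG8 (AT5G52860), also with no role given here, fell in wild type. It read -4.45, -4.67 and -5.31 on DMSO and -6.32, -7.43 and -6.5 on 3B7N, where it was well above background on 2 of 3 arrays. In cry1cry2 it read -5.96, -6.33 and -6.02 on DMSO and -5.45, -5.61 and -6.14 on 3B7N. Untreated wild type was the high group here, the reverse of ABCG15 and ABCG19. The difference was -1.94 ± 0.31 (limma adjusted p = 0.000592) in wild type, -1.51 within the slide, and 0.37 in cry1cry2, and with normexp and quantile scaling it was -0.77 and not called. These signals are dim, which limits how well a fall can be measured.

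No tested member of the cuticle was called. For ABCG5, ABCG11, ABCG12 and ABCG32, which serve the export of wax and cutin precursors to the shoot surface, limma called 0 of 4 in each contrast, with 2 or 3 of 4 at an unadjusted p under 0.05 in each. With 3B7N, 10092 of all 20487 genes had such a p in wild type and 4554 in cry1cry2. The 4 members had differences of -0.04 to 0.47 with 3B7N in wild type and -0.47 to 0.41 in cry1cry2. ABCG11, which pairs with other half-size members, passed the adjusted p in wild type (0.47, limma adjusted p = 0.0464) and in the interaction (-0.94, limma adjusted p = 0.0129), both short of the size threshold. The ABCG11 difference within slides was 0.27 in wild type. Its 4 probes gave interactions of -0.94, -1.32, -1.24 and -0.59, so the value depends on the probe. ABCG13, a cuticle member of petals, was above background on 0 to 2 arrays of each group and was not tested.

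Of 14 cutin synthesis genes tested, 2 were higher and 1 lower with 3B7N in wild type (median -0.19), and 1 was higher and 1 lower in cry1cry2 (median 0.02). GPAT6, a cutin acyltransferase, rose by 2.47 ± 0.20 and by 3.95 ± 0.20 in the same order. Of 3 markers of the shoot epidermis limma called 0 with 3B7N in each genotype (1 at an unadjusted p under 0.05 in wild type and 0 in cry1cry2), and their summed signal was 23.3 to 27.6 on the wild-type DMSO arrays and 21.5 to 37.7 on 3B7N.

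Full-size members of defence and phenolic export were not called in any contrast. They are ABCG36, known as PEN3 and needed against fungal entry, ABCG37, an exporter of auxin precursor and coumarins, ABCG34, an exporter of camalexin, and ABCG29, a transporter of a lignin building block. Their differences with 3B7N in wild type were 0.48 to 0.73, and 3 of 4 passed the adjusted p without reaching a log2 difference of 1. In cry1cry2 they were 0.04 to 0.44 and 0 of the 4 passed it, or an unadjusted p under 0.05. ABCG14, which carries cytokinin from root to shoot, was at -0.24 in wild type and at -0.75 in cry1cry2 (limma adjusted p = 0.0327), also short of the call.

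ABCG22 (AT5G06530), which limits water loss through stomata, was called between genotypes on 3B7N and was not called with 3B7N in either genotype. It read 2.15, 1.79 and 1.89 in wild type on DMSO, 1.93, 2.51 and 2.12 on 3B7N, 1.15, 1.44 and 0.88 in cry1cry2 on DMSO and 0.56, 0.78 and 0.84 on 3B7N. All 6 mutant arrays were below all 6 wild-type arrays. Between genotypes the difference was -0.79 on DMSO, short of the call, and -1.46 ± 0.19 on 3B7N (limma adjusted p = 0.000734), and a second probe gave -0.76 and -1.44. The call on 3B7N was lost with slide as a block (-1.18, adjusted p = 0.273). Its relative ABCG21 was not called in any contrast.

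On DMSO, 7 members were higher and 3 lower in cry1cry2 than in wild type, 28.6% of those tested against 19% of all genes (7.64% higher and 11.4% lower), with a median of 0.12 beside 0. ABCG40 led, with the mutant at least 14.4-fold higher (fitted 5.33 ± 0.36, limma adjusted p = 7.26e-07), followed by ABCG19, ABCG15, ABCG1, ABCG18 and ABCG43 as given above. With normexp and quantile scaling ABCG40 was at 1.852 on the log2 scale, below ABCG19 (2.655), ABCG15 (2.337) and ABCG1 (2.026). That is under the bound, so the bound and the lead depend on how background is handled. The seventh higher member was ABCG33 (AT2G37280), with no role given here. It read -3.82, -4.26 and -4.37 in wild type and -2.61, -3.18 and -2.8 in cry1cry2 on DMSO, and -3.91, -3.87 and -3.72 and -3.21, -2.94 and -3.57 on 3B7N. Its mutant arrays were above the wild-type arrays on both media. The difference was 1.29 ± 0.21 (limma adjusted p = 0.000429) on DMSO and 0.59 on 3B7N.

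The 3 lower members on DMSO were ABCG23, ABCG8 at -1.296 ± 0.307 (limma adjusted p = 0.00529) and ABCG17 at -1.51 ± 0.42 (limma adjusted p = 0.0125). ABCG17 was well above background on 2 of 3 cry1cry2 DMSO arrays, and quantile scaling alone ended its call (limma adjusted p = 0.113). With normexp and quantile scaling ABCG8 (-0.469), ABCG17 (-0.415), ABCG33 (0.975) and ABCG43 (0.738) fell under the size of a call, as did ABCG23. No slide held wild-type and mutant arrays of the same medium, so a slide block joins those groups only through the others. With it the calls of ABCG40, ABCG19, ABCG15 and ABCG1 stayed, and those of ABCG8, ABCG17, ABCG18, ABCG23, ABCG33 and ABCG43 were lost. Markers of leaf mesophyll were lower in the untreated mutant, 3 of 3, with a summed signal of 334 to 429 in wild type and 100 to 215 in cry1cry2, root hair markers were lower for 3 of 4, and 6 of 9 endodermis markers were higher. All markers of these lists were above background in each group, and their part in the genotype differences was not tested.

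**Figure D4:**
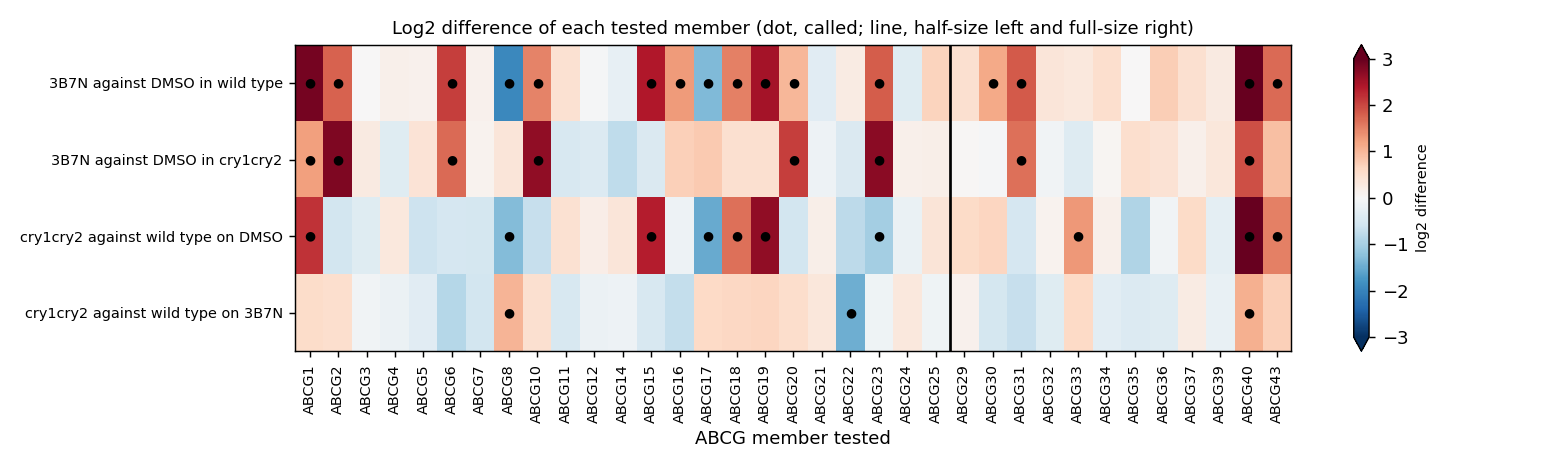
Log2 difference (colour, red higher and blue lower, saturated beyond 3 in size) of each of the 35 tested members (horizontal axis) in 4 contrasts (vertical axis). Dots mark calls and the line parts the 23 half-size from the 12 full-size members. ABCG40 exceeds the colour scale in wild type with 3B7N (6.20) and in cry1cry2 on DMSO (5.33).

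On 3B7N few of these members were called between genotypes. There were 2 higher and 1 lower in cry1cry2, 8.57% of those tested against 7.29% of all genes (4.02% higher and 3.27% lower), so the share was near the background. The median was -0.13 beside 0.05 over all genes. The higher members were ABCG40 at 1.07 ± 0.36 (limma adjusted p = 0.0473) and ABCG8 at 1.01 ± 0.31 (limma adjusted p = 0.033), both at the edge of the call, and the lower one was ABCG22. ABCG40 was not called without any 1 of 8 arrays (adjusted p 0.0588 to 0.147), nor ABCG8 without wild-type 3B7N array 2 (0.673) or cry1cry2 3B7N array 1 (0.871) or 2 (0.949), and limma called 0 members with slide as a block, where 3 had an unadjusted p under 0.05.

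The test of whether the change with 3B7N differed between genotypes called 11 members, 31.4% of those tested against 18.6% of all genes. The interaction term was positive for 5 (12.7% of all genes) and negative for 6 (5.9% of all genes), with a median of -0.37 beside 0.07. The 6 with a smaller change were ABCG40, ABCG15 (-2.84 ± 0.27, limma adjusted p = 5.89e-05), ABCG19 (-2.03 ± 0.31, limma adjusted p = 0.000751), ABCG1, ABCG30 and ABCG18. For ABCG40 the fitted -4.27 ± 0.51 (limma adjusted p = 0.000194) was taken against untreated wild-type signal that was not above background, so its size is not measured, and with normexp and quantile scaling it was -1.11. The term was positive for ABCG10 (1.17 ± 0.21, limma adjusted p = 0.00174), ABCG2 and ABCG20, each of which rose in both genotypes. It was also positive for ABCG8 (2.31 ± 0.44, limma adjusted p = 0.00269) and ABCG17 (2.10 ± 0.59, limma adjusted p = 0.0205), each of which fell in wild type and was not called in the mutant. ABCG18, at -1.03 ± 0.32 (limma adjusted p = 0.03), lost the call without any 1 of 7 arrays. ABCG2 lost it without wild-type DMSO array 1 (0.907), wild-type 3B7N array 2 (0.99) or cry1cry2 DMSO array 1 (0.962), and ABCG20 without wild-type DMSO array 1 (0.965) or cry1cry2 DMSO array 3 (0.95). Median scaling ended both calls, at 0.92 and 0.93. The mean of the passing probes ended the calls of ABCG20 and ABCG30, and the second probe of ABCG20 gave 0.31. With normexp and quantile scaling the 5 with a positive term passed the adjusted p but stood at 0.72 to 0.97, under the size of a call, and ABCG18 was at -0.92 (adjusted p = 0.0502). The slide block left ABCG10, ABCG15, ABCG19, ABCG20 and ABCG40 called.

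Of the members called with 3B7N, 8 were called in the same direction in both genotypes, which is 50% of the 16 in wild type and 100% of the 8 in cry1cry2. These 2 comparisons share no array. Over all genes 284 were called alike in both, 9.25% of the 3069 in wild type and 37.1% of the 766 in cry1cry2. For ABCG6, ABCG23 and ABCG31 the interaction was not called, with values of -0.36, 0.89 and -0.18.

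The authors' deposited table of chemical contrasts lists 12 members in wild type and 7 in cry1cry2, and all of them are among the calls given here. The authors' deposited table gives its fold changes without a sign, with 7.12 for ABCG1, 5.54 for ABCG19 and 4.09 for ABCG6 in wild type and 7.07 for ABCG2, 6.61 for ABCG23 and 6.33 for ABCG10 in cry1cry2. ABCG40, ABCG20, ABCG8 and ABCG17 were called here in wild type and are not in that part of the authors' deposited table, and for cry1cry2 the same is true of ABCG40.

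Of the 35 tested members, 17 were called in no contrast, and besides those named above they were ABCG3, ABCG4, ABCG7, ABCG24, ABCG35 and ABCG39. The members not called with 3B7N had differences between -0.37 and 0.73 in wild type, where 5 of 19 passed the adjusted p, and between -0.75 and 0.91 in cry1cry2, where 2 of 27 did. ABCG35 came nearest to a call between genotypes on DMSO, at -0.91 (limma adjusted p = 0.0019). Of the tested members 31 were well above background on all 12 arrays, and the others were ABCG4, ABCG8, ABCG17 and ABCG40. Among members with a probe that were not tested, ABCG9, ABCG26 and ABCG28, which serve pollen, were above background on 0 of 12 arrays, ABCG41 on 1, and ABCG13 on 2 arrays of each group except wild type on 3B7N, where it was on 0. ABCG27, ABCG38 and ABCG42 had no probe here.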

How the data were processed

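RNA of 12 seedling samples was hybridised to one-colour arrays of Agilent. Per the file headers, the authors quantified spots with Agilent Feature Extraction 10.7.3.1. The deposited intensity taken here is its processed signal, with background subtracted and no scaling between arrays. The authors also deposited a probe table with an unsigned fold and a corrected p-value, and its filter and correction were not stated in these sources.

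Of 45220 spots, 43803 were not controls and gave 43603 probes. Repeated spots (50 probes) were averaged as log2 values, and 49 probes having any outlier spot were dropped. The log2 intensity was set relative to the 75th percentile over all probes of an array. A probe passed where each of the 3 arrays of some group had it well above background (32759 probes). Loci were joined by RefSeq accession through a table of TAIR10.1 (34348 probes). The headers name TAIR10, so no coordinates are given. The brightest passing probe stood for its gene. limma 3.58.1 in R 4.3.3 (lmFit, eBayes, two-sided) fitted 4 group means to 20487 genes, tested on simulated data. There were 0 saturated spots. Arrays give no counting depth, and their number limits precision.

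The members, gene lists, tests and naming rule were chosen with earlier results of these data known. All loci are accounted for. Values on every array are given for called members, for at most the 8 with the smallest adjusted p in a contrast. Up to 4 called genes of a list are named. The 4 guard cell markers were given whole, and uncalled values of the ABA and suberin lists were added, after their values were seen. A planned order of levels is not given, because probes cannot be compared. Same-numbered samples are not said to share an origin, and their deviations correlated at -0.325 to 0.358, so the numbers do not pair them. Alternatives changed background correction, scaling, filter, probe choice, slide or replicate block, groups in the fit, array weights and single arrays.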

Additional observations from a re-analysis of the deposited data

Results flagged for a closer look

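The change with 3B7N differed between cry1cry2 and wild type in 11 ABCG members, by the interaction term of the limma fit (change in cry1cry2 minus change in wild type, log2). That is 31.4% of those tested against 18.6% of all genes, of which 12.7% had a called positive term and 5.9% a called negative one. The change was smaller in cry1cry2 for ABCG15 (-2.84), ABCG40 (-4.27), ABCG19 (-2.03), ABCG1 (-1.63), ABCG30 (-1.16) and ABCG18 (-1.03). It was greater for ABCG10 (1.17), ABCG20 (1.07) and ABCG2 (1.05), which rose in both genotypes. The term was also positive for ABCG8 (2.31) and ABCG17 (2.10), which fell in wild type and were not called in cry1cry2. On the 3 wild-type 3B7N arrays ABCG8 was well above background on 2 and ABCG17 on 1. Both terms lost the call with normexp and quantile scaling together and with slide as a block. ABCG40 was not above background in untreated wild type, and its value was -1.11 with normexp correction and quantile scaling together. The cause of these differences was not tested.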

How the results depend on the processing

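Of 48 called member values, 23 kept the call in every alternative that gave them a value (20 to 22 each, since dim members drop out under the strictest filter and the interaction needs all groups), 25 lost it in at least 1 and 0 reversed. With slide as a block 28 kept it and 20 lost it, and with normexp correction and quantile scaling, changed together and called normexp below, 31 kept it and 17 lost it. Quantile scaling alone gave 16, 8, 9, 2 and 8 members in wild type, cry1cry2, on DMSO, on 3B7N and in the interaction. The count between genotypes on DMSO was 10 and became 5 with normexp and 5 with a slide block. Of the 10, the slide block kept only ABCG1, ABCG15, ABCG19 and ABCG40, so its count includes a member not called without the block. Between genotypes on 3B7N it was 3 and became 1 with normexp, 1 with median scaling, 1 with probes above background on all arrays (31 members) and 0 by limma with a slide block (3 at an unadjusted p under 0.05). The interaction count was 11 and became 5 with normexp and 5 with a slide block. Leaving out single arrays gave 14 to 16 in wild type, 7 to 9 in cry1cry2, 9 to 11 and 1 to 3 between genotypes on DMSO and on 3B7N, and 9 to 12 in the interaction. The cause of these changes was not tested.

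The replicate block, whose numbers do not pair the samples, kept all 48 calls, with 16, 8, 10, 3 and 11 members in the order of wild type, cry1cry2, DMSO, 3B7N and interaction. Over all genes, normexp with quantile scaling called 820 higher and 937 lower in wild type against 1205 and 1864, 221 and 169 in cry1cry2 against 432 and 334, 1104 and 1430 between genotypes on DMSO against 1565 and 2330, 283 and 304 on 3B7N against 824 and 669, and 1569 and 929 in the interaction against 2606 and 1209. A slide block called 218 and 98 in cry1cry2 and 14 and 32 between genotypes on 3B7N. Median scaling moved the higher share of calls from 39.3% to 52.4% in wild type, from 55.2% to 36.2% between genotypes on 3B7N and from 68.3% to 57% in the interaction, and the median of all genes from -0.056 to 0.076, from 0.054 to -0.079 and from 0.074 to -0.062, with the members' median in wild type at 0.62. Signal over background limits the dim members. Normexp with quantile scaling gave a wild-type difference of -0.77 for ABCG8, -0.53 for ABCG17, 2.60 for ABCG40 and 0.82 for ABCG43, against -1.94, -1.32, 6.20 and 1.70, and quantile scaling alone gave -2.10, -1.85, 6.45 and 1.88.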
